A study of Mus musculus with 12 samples.

Results

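The transcripts of 7 peptide hormone genes of the pancreatic islet were followed on 12 mouse arrays: Ins2 (insulin), Iapp (islet amyloid polypeptide), Gcg (glucagon), Sst (somatostatin), Ppy (pancreatic polypeptide), Pyy (peptide YY) and Ghrl (ghrelin). All probe sets that the array annotation assigns to one of these symbols alone were taken, which gave 10 probe sets for the 7 genes, of 45037 non-control probe sets and 18193 genes in all. Iapp had 4 probe sets and each other gene 1. All mice were C57BL6, and the 4 groups of 3 arrays were Sgpp2-/- (KO) on a normal diet, wild type (WT) on a normal diet, KO on a high-fat diet and WT on a high-fat diet. The gene disrupted in KO codes for a phosphatase that acts on the signalling lipid sphingosine-1-phosphate in the endoplasmic reticulum. The labels give no age, sex, length of feeding, diet composition or number of animals per array, and they do not say how the Sgpp2 allele was made or whether the arrays of a group came from separate animals. P-values therefore measure only the spread between these arrays, which may be technical.

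Islets are small clusters of endocrine cells in the pancreas. Beta cells make insulin and co-release amyloid polypeptide from the same granules, alpha cells make glucagon, delta cells make somatostatin, and gamma cells make pancreatic polypeptide. Insulin lowers blood glucose and glucagon raises it, while somatostatin acts locally to restrain both. Peptide YY belongs to the same peptide family as pancreatic polypeptide, and ghrelin marks the rare epsilon cells. Each hormone is translated as a larger precursor, cut by prohormone convertases and stored in dense-core granules, so that a transcript level is not a level of circulating hormone.

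The promoters of 4 hormone genes from 4 different endocrine cell types are shown because their transcripts all lie at the bright end of the array. The Sst window lacks the exact letters of a motif that the other windows shown share. RefSeq windows (GRCm38.p6) from 250 bases before to 50 bases after a listed start were given for 6 of the 7 genes, with Ins2 missing from the table. For Sst the listed start lies inside the RefSeq gene model, which runs from 23889573 to 23891342 on the minus strand, so its window is not that of the outermost start. Sequences are written 5' to 3' on the strand of the gene, and capitals mark 2 motifs. The first is TATAA, the core of the TATA box, searched on both strands (on the reverse strand it reads TTATA). The second is TGACGTCA, the palindromic cAMP response element, and the motifs do not overlap here.
Iapp, chr6:142298175-142298474, plus strand: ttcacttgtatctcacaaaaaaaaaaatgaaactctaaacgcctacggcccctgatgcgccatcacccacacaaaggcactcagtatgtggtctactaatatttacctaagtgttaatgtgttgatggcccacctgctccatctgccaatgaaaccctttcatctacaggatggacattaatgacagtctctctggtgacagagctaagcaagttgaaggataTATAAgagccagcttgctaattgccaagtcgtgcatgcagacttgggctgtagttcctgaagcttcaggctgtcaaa
Gcg, chr2:62483604-62483903, minus strand: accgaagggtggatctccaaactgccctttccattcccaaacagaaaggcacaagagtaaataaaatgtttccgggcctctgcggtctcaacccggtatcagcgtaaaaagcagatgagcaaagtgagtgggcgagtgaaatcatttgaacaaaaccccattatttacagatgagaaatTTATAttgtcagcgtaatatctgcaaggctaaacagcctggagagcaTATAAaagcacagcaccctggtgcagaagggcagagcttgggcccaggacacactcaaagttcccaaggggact
Sst, chr16:23890795-23891094, minus strand: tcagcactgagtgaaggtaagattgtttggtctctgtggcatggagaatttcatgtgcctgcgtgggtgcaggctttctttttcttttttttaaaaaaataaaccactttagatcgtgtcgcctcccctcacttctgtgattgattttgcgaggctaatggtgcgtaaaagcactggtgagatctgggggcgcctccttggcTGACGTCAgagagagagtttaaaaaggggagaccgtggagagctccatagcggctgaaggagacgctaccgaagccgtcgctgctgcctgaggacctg
Ppy, chr11:102101270-102101569, minus strand: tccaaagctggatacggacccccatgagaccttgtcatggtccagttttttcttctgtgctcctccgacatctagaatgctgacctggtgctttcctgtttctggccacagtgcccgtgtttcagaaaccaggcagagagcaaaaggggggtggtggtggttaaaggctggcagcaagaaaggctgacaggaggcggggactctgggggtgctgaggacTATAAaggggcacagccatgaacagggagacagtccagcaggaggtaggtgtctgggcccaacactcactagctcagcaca
The TATAA core began 27 bases before the listed start in Iapp, 24 bases before it in Gcg and 31 bases before it in Ppy, and the capitals further upstream in Gcg are a reverse-strand match. The Sst window held no TATAA on either strand and 1 TGACGTCA, which ran from base -48 to base -41. TATAA or its reverse complement was found in 24.8% of 32544 promoter windows of the same length, and TGACGTCA in 1.8%. These matches describe letters and not bound sites.

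Before the comparisons, the identity of the material was examined. The sample labels name no tissue, and the series title names pancreatic islets. The beta cell genes Slc2a2 (the glucose transporter) and Ucn3 (urocortin 3) had mean log2 values of 13.55 and 13.78. Digestive enzyme genes of acinar cells were also bright, with means of 13.97 for Cpa1 and 14.11 for Prss2, and the marker genes of liver and fat ranged widely. Alb (albumin) averaged 6.11 and Adipoq (adiponectin) 3.53, whereas Apoa1 averaged 9.10, with 1 array at 11.36, and Fabp4, a fatty acid binding protein of fat and endothelial cells, averaged 11.53. The red cell genes Hba-a1 and Alas2 had 4.14 and 5.39. Sgpp2 itself had log2 values of 11 to 11.17 on KO arrays and 11.51 to 11.63 on WT arrays of the normal diet, and 11.02 to 11.12 on KO arrays and 11.46 to 11.57 on WT arrays of the high-fat diet. The groups did not overlap, yet the transcript was not near the lower end of the scale in KO, and the labels do not say where its probe set lies relative to the disrupted part of the gene. The values are log2 RMA summaries, made by background correction, quantile normalization and summary of the probes of a set. Because the islet RNA was measured in bulk, fewer cells of a type and less RNA per cell cannot be told apart.

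The hormone genes stood at the very top of the intensity scale. The brightest Iapp probe set (1423509_a_at) ranked 1 of 45037 non-control probe sets on each of the 12 arrays, with log2 values from 14.86 to 15.04. The Ins2 probe set ranked between 5 and 49, the Pyy probe set between 13 and 46, and the Gcg probe set between 24 and 68. Sst ranked between 33 and 117 and Ppy between 48 and 95. Ghrl was the exception, with a rank between 6088 and 12100. A rank places a probe set on the scale of brightness and does not compare the amounts of different transcripts, since probes differ in how strongly they bind.

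Values near the top moved little, whatever the gene. Of the 10 hormone probe sets, 8 had a mean log2 value of 14 or more, a range that only 152 probe sets (0.34%) reached. In that range the median SD over the 12 arrays was 0.042 and the median distance between the lowest and the highest array was 0.14. Probe sets with a mean from 5 to 8 had a median SD of 0.213, which was 5.04 times larger. Of the 66 genes tested whose mean was 14 or more, 0 passed the threshold in any of the 7 comparisons by limma. Over all genes the share was 6.32% between KO and WT averaged over both diets. That fit draws every gene toward one SD of 0.132, above the median within-group SD of 0.037 in this range. Bright genes therefore pass less easily in it, and the 0 does not measure how little they moved. The largest difference between KO and WT on the normal diet among the 66 was 0.29, for Prss2. A bright probe on such an array gains little signal as its target rises, so a given log2 difference of these genes can understate the difference in RNA. Saturation itself was not measured here, and its part in the narrow spread was not tested.

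**Figure D1:**
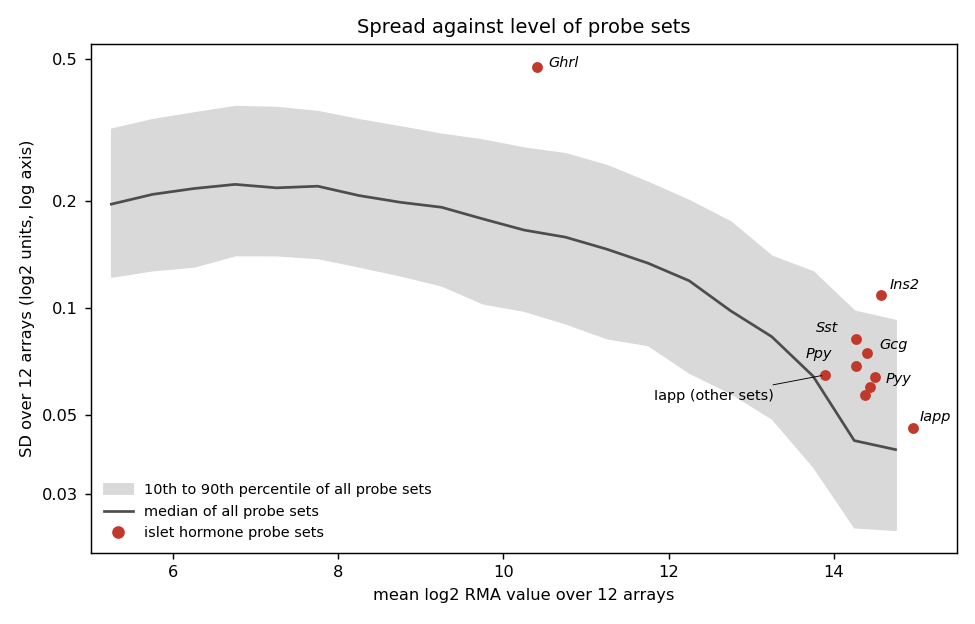
SD over the 12 arrays (y axis, log2 units, log axis) against the mean log2 value (x axis) of non-control probe sets, with the hormone probe sets marked. The SD shrinks toward the right edge, where all hormones except Ghrl lie, and the point of Ghrl lies above those of nearly all probe sets of its level.

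Within this bright range the hormones varied more than most neighbours on the scale. The SD of Ins2 over the 12 arrays, 0.109, was larger than that of 92.8% of the probe sets with a mean of 14 or more. The share was 84.9% for Sst, 79.6% for Gcg, 76.3% for Ppy, 74.3% for Pyy and 59.9% for the brightest Iapp probe set. These shares describe the arrays, and no test was made of them.

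Ins2, which encodes one of the insulin precursors, had log2 values of 14.47, 14.60 and 14.51 on the KO arrays of the normal diet and 14.70, 14.57 and 14.58 on the WT arrays. On the high-fat diet the values were 14.52, 14.70 and 14.36 in KO and 14.71, 14.50 and 14.69 in WT. The groups overlapped on both diets, and the widest spread was in KO mice on the high-fat diet, which held the lowest of the 12 values. The x in the name of the Ins2 probe set (1422446_x_at) marks probes that can also bind other transcripts, so the signal may not come from Ins2 alone. KO minus WT was -0.09 on the normal diet (SE 0.10, 95% interval -0.30 to 0.13) and -0.10 on the high-fat diet (interval -0.32 to 0.11), with adjusted p of 0.612 and 0.649 (limma, Benjamini-Hochberg over 15237 genes). As a fold on the scale of the array, the average over both diets was 0.937, with an interval from 0.844 to 1.04.

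Iapp, whose peptide is co-secreted with insulin and forms amyloid in human and cat islets, had values of 14.86, 14.92 and 14.95 in KO and 15.01, 14.97 and 14.97 in WT on the normal diet. All 3 KO values of the normal diet lay below all 3 WT values. On the high-fat diet Iapp had 14.97, 14.98 and 14.92 in KO and 15.04, 15 and 14.96 in WT, and the groups overlapped. Iapp was the one hormone gene of 7 whose arrays did not overlap between KO and WT on the normal diet, while 34.3% of all genes tested did not overlap there. By the same probe sets 0 of 7 hormone genes were free of overlap under high-fat feeding, against 14.8% of all genes. The KO minus WT difference was -0.07 on the normal diet (SE 0.06, interval -0.21 to 0.06, adjusted p = 0.499 by limma). By exact two-sided permutation p was 0.1, and no lower value is possible with 3 arrays against 3.

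The other 3 Iapp probe sets, read on the same RNA, did not show this separation: each overlapped between KO and WT on the normal diet (exact permutation p = 0.6 for 1423510_at, 0.2 for 1437323_a_at and 0.2 for 1456004_x_at). Over the 12 arrays 1423510_at had a mean of 14.44, 1437323_a_at of 14.38 and 1456004_x_at of 13.90. All 4 were lowest on array 1 of the KO mice on the normal diet, and 3 of the 4 were highest on array 1 of the WT mice on the high-fat diet. The dimmest, 1456004_x_at, was the one of the 4 whose KO and WT arrays did not overlap on the high-fat diet, with a mean of 13.87 in KO and 13.96 in WT (exact permutation p = 0.1). It also had the widest range over the 12 arrays, 0.23, against 0.17 for the brightest. Averaged over both diets, KO minus WT was -0.06 for 1423509_a_at, -0.03 for 1423510_at, -0.06 for 1437323_a_at and -0.08 for 1456004_x_at. With every probe set tested on its own, the last 3 had adjusted p of 0.768, 0.516 and 0.358 by limma. The probe sets share arrays and target, and are not replicates of one another.

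**Figure D2:**
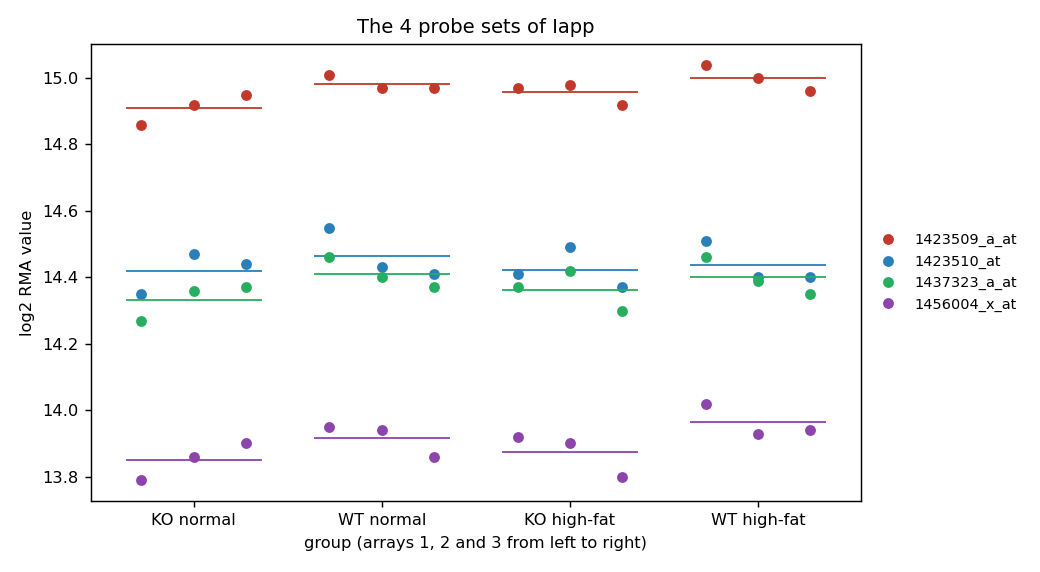
Log2 value (y axis) of each of the 4 Iapp probe sets on the 12 arrays, with KO left of WT within each diet. The probe sets keep their order on every array, from 1423509_a_at at 14.86 to 15.04 down to 1456004_x_at at 13.79 to 14.02, and all 4 are lowest on array 1 of KO on the normal diet.

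Gcg, the precursor gene of glucagon and of the glucagon-like peptides, had 14.36, 14.38 and 14.32 in KO and 14.53, 14.41 and 14.38 in WT on the normal diet. The high-fat values were 14.40, 14.55 and 14.30 in KO and 14.43, 14.33 and 14.39 in WT. Both diets overlapped between genotypes, and the highest and the lowest of the 12 values both came from KO mice on the high-fat diet. KO minus WT was -0.08 on the normal diet (interval -0.26 to 0.09) and 0.04 under high-fat feeding (interval -0.14 to 0.21), with adjusted p of 0.533 and 0.86. The interaction, 0.12, had an adjusted p of 0.998 by limma.

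Sst, which encodes the delta cell hormone somatostatin, had 14.20, 14.24 and 14.26 in KO and 14.38, 14.30 and 14.24 in WT on the normal diet. Under high-fat feeding it had 14.25, 14.29 and 14.13 in KO and 14.32, 14.23 and 14.43 in WT. The genotypes overlapped on both diets. The difference was -0.08 on the normal diet and -0.10 on the high-fat diet, and the average over both was -0.09 (SE 0.06, interval -0.21 to 0.03, adjusted p = 0.294 by limma), the smallest adjusted p of any hormone in that comparison. The other delta cell markers had a median difference of -0.194 in the same average, against -0.041 for all genes. They were 8 genes tested, with 0 past the threshold. Their summed level was 12.55 to 12.75 in KO and 12.84 to 12.88 in WT on the normal diet, and 12.40 to 12.77 in KO and 12.52 to 13 in WT on the high-fat diet. These sums mostly follow Rbp4, with a mean of 12.33 against 9.53 for Hhex, so they do not measure the number of delta cells. Ghsr (5.45), Cckbr (5.73) and Nts (5.79) lay near the filter. The part of these markers in the Sst values was not tested.

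The pancreatic polypeptide family had 2 members here, both on chromosome 11. Ppy had 14.23, 14.36 and 14.32 in KO and 14.38, 14.27 and 14.24 in WT on the normal diet, and 14.27, 14.34 and 14.17 in KO and 14.20, 14.19 and 14.33 in WT on the high-fat diet. KO and WT overlapped on both diets, and the averaged difference was 0.01 (interval -0.11 to 0.13, adjusted p = 0.895 by limma). Pyy had 14.49, 14.48 and 14.40 in KO and 14.62, 14.59 and 14.48 in WT on the normal diet, and 14.51, 14.49 and 14.40 in KO and 14.50, 14.49 and 14.55 in WT on the high-fat diet. The Pyy values of the genotypes overlapped on both diets, and the averaged difference was -0.08 (SE 0.05, interval -0.18 to 0.03, adjusted p = 0.307). Other gamma cell markers had a median difference of -0.269 over 5 genes, against -0.041 for all genes, with 0 of the 5 past the threshold. Their summed level was 13.35 to 13.61 in KO and 13.68 to 13.76 in WT on the normal diet. On the high-fat diet that level was 13.33 to 13.59 in KO and 13.48 to 13.72 in WT. The sums mostly follow Tspan8 and Carm1, with means of 12.90 and 11.54 against 9.92 for Folr1, and do not measure the number of gamma cells. The part of these markers in the Pyy values was not tested.

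**Figure D3:**
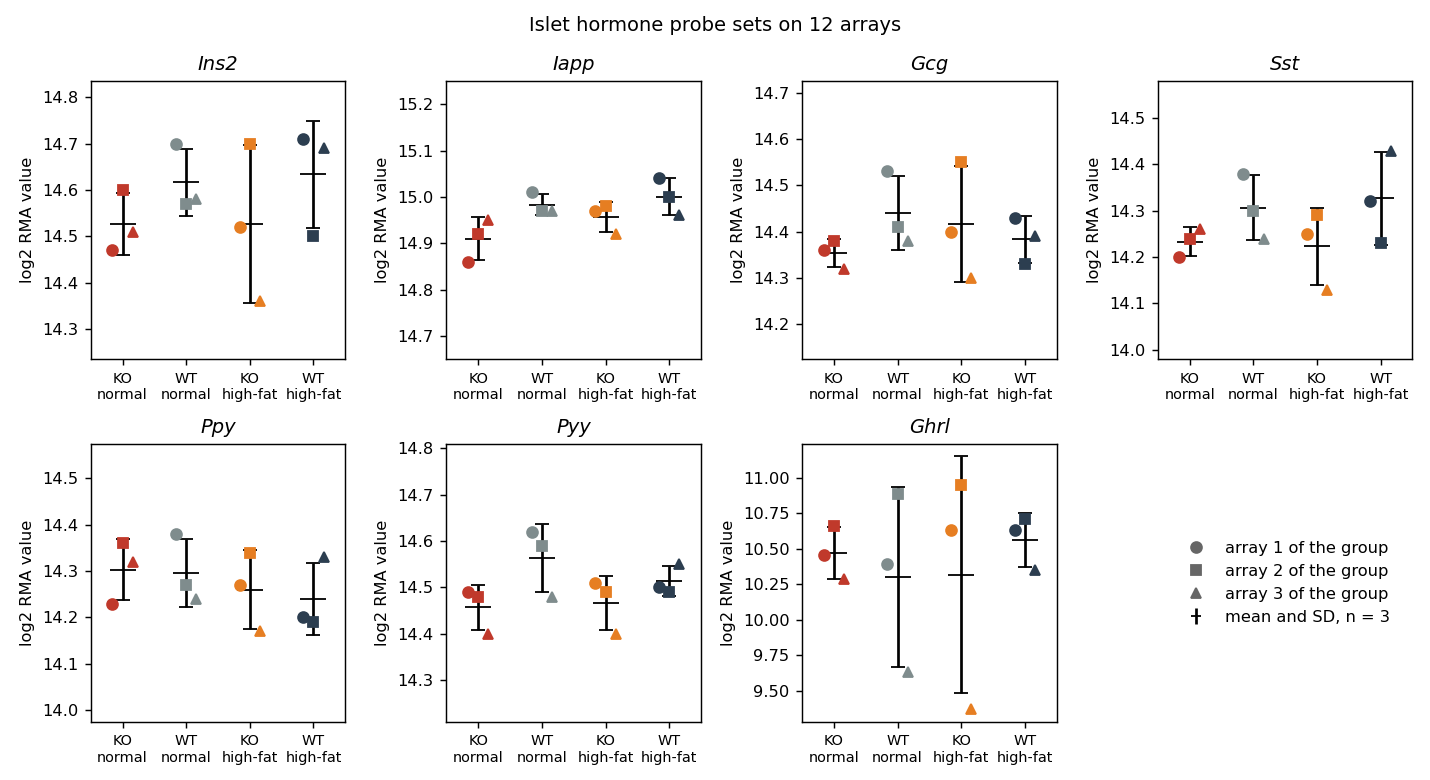
Log2 RMA value (y axis) of the representative probe set of each hormone gene on each of the 12 arrays, with KO left of WT within each diet and bars at group means with SD (n = 3). The 6 bright hormones stay between 14.13 and 15.04, while Ghrl spans 9.37 to 10.95.

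Ghrl behaved unlike the other hormones. It had 10.46, 10.66 and 10.29 in KO and 10.39, 10.89 and 9.63 in WT on the normal diet, and 10.63, 10.95 and 9.37 in KO and 10.63, 10.71 and 10.35 in WT on the high-fat diet. The spread was within the groups: the SD was 0.84 in KO and 0.18 in WT on the high-fat diet, and 0.18 in KO and 0.63 in WT on the normal diet. Its range over the 12 arrays was 1.59, and its SD was 4.36 times that of Ins2 and larger than that of 99.2% of probe sets with a mean from 10 to 12. KO minus WT was 0.17 on the normal diet (SE 0.38, interval -0.67 to 1) and -0.25 on the high-fat diet (interval -1.08 to 0.59), with adjusted p of 0.812 and 0.798 by limma. As folds these intervals run from 0.629 to 2 and from 0.472 to 1.5.

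In each of the 4 groups Ghrl was lowest on array 3 and highest on array 2. Of the 15237 genes tested, 69 (0.453%) had one and the same order of arrays in all 4 groups, and 5 (0.0328%) had this order. No other hormone gene did. The shares were not set against those of unrelated orders, which are also small with 3 arrays a group. They are therefore no measure of a link between same-numbered arrays. This observation was made after the values had been seen, and the labels do not say what a replicate number stands for. With the number as a replicate block, the SE of the Ghrl difference between genotypes on a diet was 0.23 in place of 0.38, and the adjusted p by limma was 0.694 on the normal and 0.675 on the high-fat diet. The smaller SE follows from the shared order and is not separate evidence for it. Single arrays set the sign: without array 3 of WT the normal-diet difference was -0.17, and without array 3 of KO the high-fat difference was 0.23. The 3 other epsilon cell markers tested had summed levels of 13.93 to 13.99 in KO and 13.90 to 13.94 in WT on the normal diet. On the high-fat diet the sums were 13.96 to 14.09 in KO and 13.76 to 14.04 in WT. These sums mostly follow Defb1, with a mean of 13.82 against 10.35 for Anpep and 5.58 for Prg4. Defb1 was also far brighter than Ghrl (mean 10.41), so the sums do not measure the number of epsilon cells.

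Of the hormone genes, 0 of 7 passed the threshold between KO and WT on the normal diet, where 0.84% of the genes tested did. Under high-fat feeding 0 of 7 passed, against 0.0263% of all genes, and in the average over both diets 0 of 7, against 6.32%. At an unadjusted p under 0.05 the limma count was 0 of 7 in each of these comparisons, against 22.1%, 13.4% and 28.6% of all genes. The shares of all genes past the threshold depended on single arrays, while the hormone count was 0 with any array left out. Without array 1 of WT the normal-diet share was 0.0131% and without array 2 of WT on the high-fat diet it was 1.46%. The high-fat share lay between 0.0% without array 2 of KO and 1.79% without array 2 of WT on that diet, and the averaged share between 1.67% without array 1 of WT on the normal diet and 16.4% without array 2 of WT on the high-fat diet. Leaving out 1 array moved the count by over 1.5 times for 11 of the 12 arrays on the normal diet, for 9 on the high-fat diet and for 9 in the average. The fitted differences were below 0 for 5 of 7 on the normal diet with a median of -0.078, where the median of all genes was -0.054. On the high-fat diet 5 of 7 were below 0 with a median of -0.047 against -0.029. In the average 6 of 7 were below 0, with -0.057 against -0.041. The 66 genes tested with a mean of 14 or more, bright hormones among them, lay nearer 0. Their median was -0.003 on the normal diet, 0.012 on the high-fat diet and 0.009 in the average. Of the 66, 35, 28 and 30 were below 0 in that order. The signs of the hormone differences depended on the scaling of the arrays. With each array centred on its median the averaged differences were 0.03 for Gcg and 0.01 for Ghrl. After cyclic loess they were -0.05 for Ppy and 0.00 for Ghrl. Cyclic loess also enlarged the averaged differences of bright hormones to -0.16 for Ins2, -0.15 for Sst and -0.14 for both Iapp and Pyy, while centring shrank them to -0.04 for Ins2, -0.04 for Sst, -0.02 for Pyy and 0.00 to 2 decimals for Iapp.

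**Figure D4:**
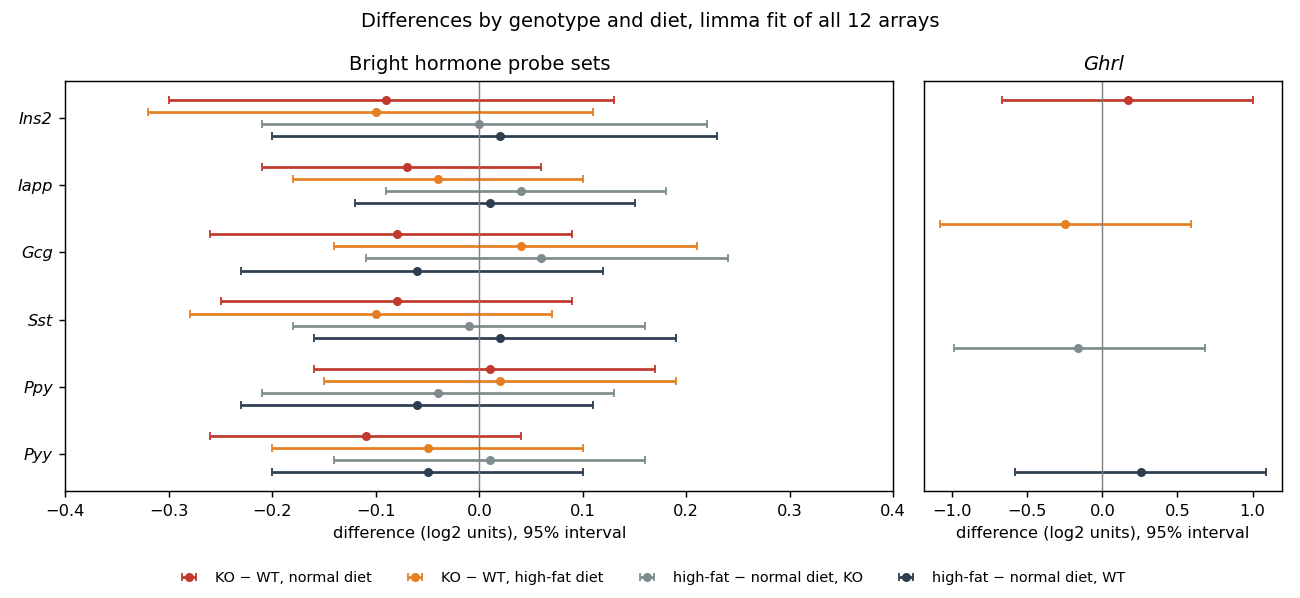
Difference in log2 value (x axis) with its 95% interval from limma for each hormone gene, KO minus WT within each diet and high-fat minus normal diet within each genotype. The averages and the interaction are not drawn. Every interval crosses 0, and those of Ghrl are several times wider than those of the 6 bright hormones.

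Exact two-sided permutation of the arrays, which uses the spread of each probe set alone, was made for the 10 hormone probe sets in 6 comparisons. Of the 60 tests, 4 gave a p under 0.05, all between KO and WT over both diets with 6 arrays against 6. Most of the 60 could not, since tests of 3 arrays against 3 cannot go below 0.1. The 60 is therefore not the number of tests from which the 4 could have come. The permutation was not run on all genes, so no share over all genes stands beside the 4. By limma 28.6% of all genes had an unadjusted p under 0.05 in that comparison, so the 4 are not read as a trait of the hormones. The brightest Iapp probe set averaged 14.93 in KO and 14.99 in WT (exact p = 0.026), and 1456004_x_at averaged 13.86 in KO and 13.94 in WT (exact p = 0.0325). Pyy averaged 14.46 in KO and 14.54 in WT (exact p = 0.039), and Sst 14.23 in KO and 14.32 in WT (exact p = 0.0476). These p-values are not adjusted for the number of tests, and the limma test across all genes gave adjusted p of 0.408 for Iapp, 0.307 for Pyy and 0.294 for Sst in the same comparison. Within single diets the exact p of these 4 probe sets, which are named for their low p, was between 0.1 and 0.4. The other Iapp probe sets had exact p of 0.42 for 1423510_at and 0.0887 for 1437323_a_at over both diets.

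The limma test draws the variance of each gene toward one common value, an SD of 0.132, whereas the residual SD was 0.036 for Iapp, 0.055 for Pyy and 0.077 for Sst. In a fit whose common variance followed the level of a gene, added after the values had been seen, the SD toward which bright hormones were drawn was 0.041 to 0.049. That fit called 0 of 7 hormones in any comparison, against 2.22% of all genes on the normal diet, 0.42% on the high-fat diet and 9.48% in the average. At an unadjusted p under 0.05 it counted 2 of 7 on the normal diet, Iapp (0.0355) and Pyy (0.0243), against 22.8% of all genes. The unadjusted count was 0 of 7 on the high-fat diet, against 14.4%, and 3 of 7 in the average, against 29.4%, for Iapp (0.0218), Pyy (0.022) and Sst (0.0369). The adjusted p by limma in the average was 0.108 for Iapp, 0.108 for Pyy and 0.144 for Sst.

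No difference between the diets passed the test for any hormone. In WT mice 0 of 7 passed, against 0.0788% of all genes, with fitted differences of -0.06 for Gcg, -0.06 for Ppy, -0.05 for Pyy, 0.02 for Ins2, 0.02 for Sst, 0.01 for Iapp and 0.26 for Ghrl. In KO mice it again called 0 of 7 and 0.0% of all genes, where 1173 genes (7.7%) had an unadjusted p under 0.05 by limma. With same-numbered KO arrays as pairs, as a random block added after the values had been seen, 0 of 7 hormones and 5 higher and 5 lower genes were called. The fitted differences in KO were 0.06 for Gcg, 0.04 for Iapp, 0.01 for Pyy, 0.00 for Ins2, -0.01 for Sst, -0.04 for Ppy and -0.16 for Ghrl. Averaged over genotypes the diet called 0 of 7 hormones and 0.197% of all genes, and the Ins2 difference was 0.01 (interval -0.14 to 0.16). With the KO pairs as a random block that comparison called 43 higher and 41 lower genes, and with the number as a fixed block 0 and 0, with 0 of 7 hormones in both fits. The interaction of genotype and diet called 0 of 7 and 0.0% of all genes, where 758 genes (4.97%) had an unadjusted p under 0.05 by limma, and each hormone had an adjusted p of 0.998. With a variance that followed the level of a gene, the counts over all genes were also 0 for the diet in KO and for the interaction.

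A few arrays held most of the extremes. Array 3 of KO on the high-fat diet was the lowest of the 12 for 5 of the 10 hormone probe sets, those of Ins2, Gcg, Sst, Ppy and Ghrl. The same array was lowest for 11.1% of the other 144 probe sets with a mean of 14 or more and for 17.3% of 35416 other probe sets above the filter. Array 1 of KO on the normal diet was lowest for 4 hormone probe sets, all of Iapp, and for 4.9% of the other bright probe sets. The highest values fell on array 1 of WT for 7 probe sets, 4 on the high-fat and 3 on the normal diet. The 2 beta cell hormones thus had their lowest values on different KO arrays.

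The genes whose values over the 12 arrays were most like those of each hormone are given as a description, chosen as the highest of all genes tested. For Ins2 they were Gtf2f1, a subunit of a general transcription factor (Pearson r = 0.97, Spearman rho = 0.94), Ino80e (0.96 and 0.92) and Timm13 (0.96 and 0.94). Iapp was most like Ciita (r = 0.89, rho = 0.85), A330033J07Rik (0.89 and 0.87) and Fdps, an enzyme of cholesterol synthesis (0.88 and 0.85). For Gcg the closest were Ppp1r37 (r = 0.96), Naip2 (0.94) and Gm45914 (0.92). For Sst they were Etfdh, Trip10 and the granule protein gene Chga, each with r = 0.96. Ppy was closest to Carm1 (r = 0.92), Atp5b (0.91) and Pdzd11 (0.90), and Pyy to Rnf113a2 (0.97), Neu2 (0.95) and Ly6h (0.94). Ghrl had the lowest likeness, with Wdr33 (r = 0.86, rho = 0.62), Iqcg (0.82 and 0.66) and Zswim9 (0.80 and 0.48). The 12 points of each pair share arrays, groups and scaling, and the closest gene of Ins2, Gtf2f1, was also lowest on array 3 of KO on the high-fat diet.

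Genes that make, carry or receive the hormones were counted from lists. Of 23 prohormone processing genes, 20 were tested and 1 passed in the average over both diets: Cpd, a carboxypeptidase of the Golgi, which rose by 0.35 (SE 0.08, adjusted p = 0.0318 by limma), while 6.32% of all genes passed there. Its means were 12 in KO and 11.54 in WT on the normal diet, and 11.88 in KO and 11.62 in WT on the high-fat diet. The list's median in that comparison was -0.042, near the -0.041 of all genes. Of 27 regulators of hormone genes, 21 were tested and 1 passed, again in the average: Insm1, a zinc finger factor of endocrine differentiation, which rose by 0.44 (SE 0.06, adjusted p = 0.00689), beside the same 6.32% of all genes. Insm1 averaged 11.68 in KO and 11.33 in WT on the normal diet, and 11.60 in KO and 11.08 in WT on the high-fat diet, with adjusted p of 0.0781 and 0.0802 within the diets. The regulators had a median of 0.022 in that comparison. In the other 6 comparisons 0 genes of either list passed.

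The remaining lists had 0 genes past the threshold in any comparison. Of 23 hormone receptor genes 14 were tested, and Ramp3, a receptor partner for amylin and adrenomedullin, had an averaged KO minus WT difference of -0.32 (adjusted p = 0.0575 by limma). All 16 genes of granule cargo and granins were tested. On the normal diet 13 of the 16 lay below 0 in KO minus WT, with a median of -0.077, where the median of all genes was -0.054. On the high-fat diet 10 of the 16 lay below 0, with a median of -0.035 against -0.029 for all genes. Abcc8, the sulfonylurea receptor of the beta cell potassium channel, had -0.26 in the average (adjusted p = 0.0996 by limma). Of 35 other peptide hormones and neuropeptides, 26 were tested. Gal (galanin) had an averaged KO minus WT difference of 0.97 (SE 0.27, adjusted p = 0.0537). Tac1, the substance P precursor gene, averaged 7.90 in KO and 7.67 in WT on the high-fat diet and 10.22 in KO and 10.45 in WT on the normal diet, a high-fat minus normal difference of -2.55 (SE 0.54, adjusted p = 0.0986).

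Marker genes of acinar, beta and alpha cells are given beside the hormones. All 18 acinar genes tested had a positive KO minus WT difference on the normal diet, with 0 past the threshold. Their median was 0.263, against -0.054 for all genes. Their summed log2 level was 18.02 to 18.25 in KO and 17.80 to 18.02 in WT on the normal diet, and 17.93 to 17.99 in KO and 17.71 to 18 in WT on the high-fat diet. The 9 beta cell markers other than hormones had a summed level of 16.38 to 16.41 in KO and 16.38 to 16.45 in WT on the normal diet, and 16.32 to 16.42 in KO and 16.34 to 16.36 in WT on the high-fat diet. The 6 alpha cell markers other than Gcg had 14.91 to 14.97 in KO and 14.93 to 15.03 in WT on the normal diet, and 14.90 to 15.03 in KO and 14.92 to 14.96 in WT on the high-fat diet. The part of acinar RNA in the hormone values was not tested.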

How the data were processed

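Total RNA was extracted with Trizol and 4 µg per sample was labelled with biotin for one array each, per the labels' protocols. The authors deposited log2 RMA values, 1 per probe set and array; per the submitters' processing notes the tools were RMA and Partek 6.6, without options. A log2 scale was inferred from the range of values, 2.6 to 15.3. RMA equalises the distributions, so a common shift is hidden. Signal takes the place of depth: 75.9% to 77.3% of probe sets per array were above 5.

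Of 45101 probe sets, 64 were controls, 34945 named 1 symbol, 932 several and 9160 were not listed in the annotation; 34741 matched RefSeq genes (GRCm38.p6). Each gene was represented by its probe set with the highest mean, and 2956 of 18193 genes not above 5 on at least 3 arrays were left out. All 7 hormone genes passed. Limma 3.58.1 in R 4.3.3 fitted 4 groups to 12 arrays (8 residual degrees of freedom, 11.08 after moderation), with 7 contrasts, two-sided tests and Benjamini-Hochberg adjustment over 15237 genes at a threshold of 0.05. The script was tested on simulated data. Single probe sets were also tested by exact permutation. A summed level is the log2 of the summed linear values of a list.

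Genes of the lists are named where they pass the threshold, and otherwise the one with the smallest p. In most marker lists without a gene past the threshold, no gene is named for its p. The members and lists were chosen with earlier results of these data known. Alternatives were the filter, the scaling, the probe sets per gene, the arrays in the fit, a replicate block, leaving out each array and a trended variance. Deviations of same-numbered KO arrays from their group means had r = 0.29, 0.38 and 0.14 between the diets. These arrays were fitted as pairs in a random block, an alternative to the unpaired fit that gives the values printed. Between other groups the r of same-numbered arrays ran from -0.51 to 0.11. Differently numbered arrays were not compared and the labels do not explain the number, so these r do not show that the KO arrays are pairs. Python 3.11.15 with matplotlib 3.10.9 drew the figures.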

Additional observations from a re-analysis of the deposited data

How the results depend on the processing

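No hormone gene was called under any setting: over 49 results (7 genes in 7 comparisons) the lowest adjusted p was 0.0913, for Iapp in KO against WT averaged over both diets after cyclic loess. The count of hormones called stayed at 0 under each alternative run. Directions were less stable, since most values lie near 0, and 26 of the 49 results changed sign at least once.

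Cyclic loess turned the KO minus WT value of Ppy to -0.06 on the normal diet, -0.04 on the high-fat diet and -0.05 in the average, that of Gcg on the high-fat diet to -0.02, the averaged one of Ghrl to 0.00, and the diet effect on Sst in KO to 0.01. Centring each array on its median turned KO minus WT to 0.00 for Iapp on the high-fat diet, and in the average to 0.03 for Gcg and 0.01 for Ghrl. It turned the diet effect in KO to -0.02 for Ins2 and -0.01 for Pyy, the averaged diet effect to -0.00 for Ins2, -0.01 for Gcg and -0.01 for Sst, and the interaction of Ppy to -0.01. The cause was not tested. Scaling moved the median KO minus WT of all genes on the normal diet to -0.019 with loess and 0.01 with centring, from -0.054, and the averaged calls of 503 higher and 460 lower genes to 606 and 246 with loess and 877 and 209 with centring. On the normal diet these calls were 73 and 55, against 97 and 30 with loess and 195 and 44 with centring.

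Leaving out each array in turn gave the following ranges where a sign changed. KO minus WT on the normal diet ran from -0.02 to 0.05 for Ppy and -0.17 to 0.46 for Ghrl. On the high-fat diet it ran from -0.03 to 0.09 for Gcg, -0.02 to 0.06 for Ppy and -0.56 to 0.23 for Ghrl, and in the average from -0.06 to 0.00 for Gcg, -0.01 to 0.03 for Ppy and -0.21 to 0.20 for Ghrl. The diet effect in WT ran from -0.02 to 0.08 for Ins2, -0.01 to 0.03 for Iapp, -0.04 to 0.07 for Sst and -0.08 to 0.55 for Ghrl. In KO it ran from -0.09 to 0.08 for Ins2, -0.00 to 0.12 for Gcg, -0.04 to 0.04 for Sst, -0.02 to 0.04 for Pyy and -0.47 to 0.32 for Ghrl. Averaged over genotypes it ran from -0.03 to 0.05 for Ins2, -0.03 to 0.03 for Gcg, -0.02 to 0.03 for Sst and -0.12 to 0.29 for Ghrl. The interaction ran from -0.10 to 0.07 for Ins2, -0.08 to 0.03 for Sst, -0.03 to 0.06 for Ppy and -0.73 to 0.06 for Ghrl.

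The replicate block, with the number as a fixed term or with the KO pairs as a random block (correlation 0.368; added after the data were seen except for the averages), left the hormone count at 0 in each of the 7 comparisons. For Ghrl the blocked interaction was -0.41 (SE 0.33, adjusted p = 0.999 by limma). Over all genes the block lowered the averaged KO against WT calls to 313 higher and 211 lower, and to 4 and 5 on the normal diet; the random block gave 233 and 119, and 56 and 39 on the normal diet. A trended variance raised the normal-diet calls to 223 higher and 115 lower. A fit on only the groups compared equals the main one for the averages and the interaction. The precision is limited by 3 arrays a group, and possibly by saturation of bright probe sets, which was not measured.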

Other observations

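Among markers of cells that surround the endocrine cells, a few endothelial and stromal genes passed the test between genotypes. All 10 endothelial genes tested had a negative KO minus WT difference on the normal diet, with a median of -0.153. The median of all genes was also below 0 there, at -0.054. Averaged over both diets, 2 of the 10 passed the threshold: Pecam1, an adhesion protein of endothelial junctions, fell by 0.50 (adjusted p = 0.0318 by limma) and Kdr, a receptor for vascular endothelial growth factor, fell by 0.23 (adjusted p = 0.0448). The summed level of the 10 genes was 13.54 to 13.58 in KO and 13.69 to 13.80 in WT on the normal diet, and 13.62 to 13.70 in KO and 13.73 to 13.81 in WT on the high-fat diet. Of 10 stromal genes, 1 passed in the same average: Pdgfrb, a growth factor receptor of pericytes, rose by 0.34 (adjusted p = 0.0299), while 5 of the 10 lay above and 5 below 0 with a median of 0.008. Among all 15237 genes, 6.32% passed in that comparison.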
